A study of Mus musculus with 282 samples.

Results

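The hypothalamus of 99 mouse strains was examined for 10 neuropeptide precursor genes outside the main appetite, thirst and pituitary hormone systems: Gal, Nts, Penk, Pdyn, Pnoc, Vip, Cck, Tac1, Adcyap1 and Scg2. They were matched to the expression table by gene name, and all 10 have a locus of their own among the 14079 genes of the expression table, with 32 of the 51024 transcripts, 24 of the 32537 transcription start sites and 14 of the 18687 coding sequences. RNA was sequenced from the whole hypothalamus of 282 male mice fed a high fat, high sugar diet, with no group on another diet. The strains come from the Hybrid Mouse Diversity Panel and comprise 43 BXD strains (C57BL/6J and DBA/2J parents), 18 AXB and BXA strains (C57BL/6J and A/J), 7 CXB strains (BALB/c and C57BL/6), 6 BXH strains (C57BL/6J and C3H/HeJ) and 25 classical inbred strains. The labels name no treatment other than the diet and give no age. Levels are FPKM (fragments normalised to transcript length and to the number of mapped fragments), so they can be compared between genes.

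A neuropeptide is cut from a larger precursor by proprotein convertases in the secretory granule, often amidated, and released to act on G protein-coupled receptors. Galanin and the opioid peptides (enkephalins from Penk, dynorphins from Pdyn) mostly act on inhibitory receptors, and nociceptin, from Pnoc, acts on a receptor related to the opioid receptors. Neurotensin, from Nts, marks neurons of the lateral and medial preoptic hypothalamus that have been tied to feeding and body temperature. Vip and Adcyap1 encode VIP and PACAP, relatives of secretin that raise cyclic AMP, and VIP neurons of the suprachiasmatic nucleus keep its clock cells in step. Tac1 gives substance P and neurokinin A, Cck gives cholecystokinin, a satiety signal that the thalamus and cortex also express strongly, and Scg2 encodes secretogranin II, a granule protein and the source of secretoneurin.

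A library here is the RNA of 1 mouse. Of the strains, 84 had 3 libraries, 13 had 2 and 2 had 1. Replicates 2 and 3 of CXB-6/ByJ differed by less than any sampling noise (the ratio of their values was 1.005 at the first and at the 99th percentile of genes) and were averaged and counted as 1 library. The remaining libraries include 1 mouse whose title and strain label name different AXB strains, which entered no strain comparison and left 280 libraries. Hypothalamic markers (8 of 10 found, among them Agrp, Pomc, Hcrt, Pmch, Avp and Oxt) summed to between 830.8 and 9185 FPKM. Marker sums of neighbouring tissue ran from 17.4 to 381 FPKM for 5 thalamus genes, 27.5 to 140 for 4 striatum genes, 2.31 to 109.4 for 2 cortex and hippocampus genes, 7.25 to 2101 for 5 choroid plexus genes and 0.589 to 16462 for 6 anterior pituitary genes, and no gene of these lists was at 0 in most mice. In 2 libraries the FPKM of all genes summed to 792801 (BXD-12/TyJ replicate 2) and 463433 (CXB-3/ByJ replicate 3), against a median of 337467. Extreme strain means of gene levels that rest on them are given with and without them, as are some other values. Mean levels, marker sums and r with marker lists over strain means include them. The hypothalamic marker sum of 9185 FPKM is that of BXD-12/TyJ replicate 2. In whole tissue, fewer cells of a type and less RNA per cell cannot be told apart.

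Scg2 was the most abundant of the 10 precursors and Vip the least. Scg2 stood at 298.7 ± 58.8 FPKM (mean and SD over all libraries, the repeated pair counted once), at the 99.3th percentile of all genes. Cck followed at 86.7 ± 25.5, Penk at 60.6 ± 15.9, Gal at 37.6 ± 11.1 and Tac1 at 36.4 ± 7.77 FPKM. Adcyap1 stood at 22.1 ± 3.87, Nts at 17.2 ± 5.47, Pdyn at 16.2 ± 3.05, Pnoc at 9.41 ± 2.17 and Vip at 3.76 ± 1.28 FPKM, the last at the 27.8th percentile. Neighbours in this order such as Gal and Tac1, or Nts and Pdyn, differ by less than the SD between libraries. All 10 were above 0 in every library, and Vip was the only 1 of them to fall to 1 FPKM or less, in 2 libraries.

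**Figure D1:**
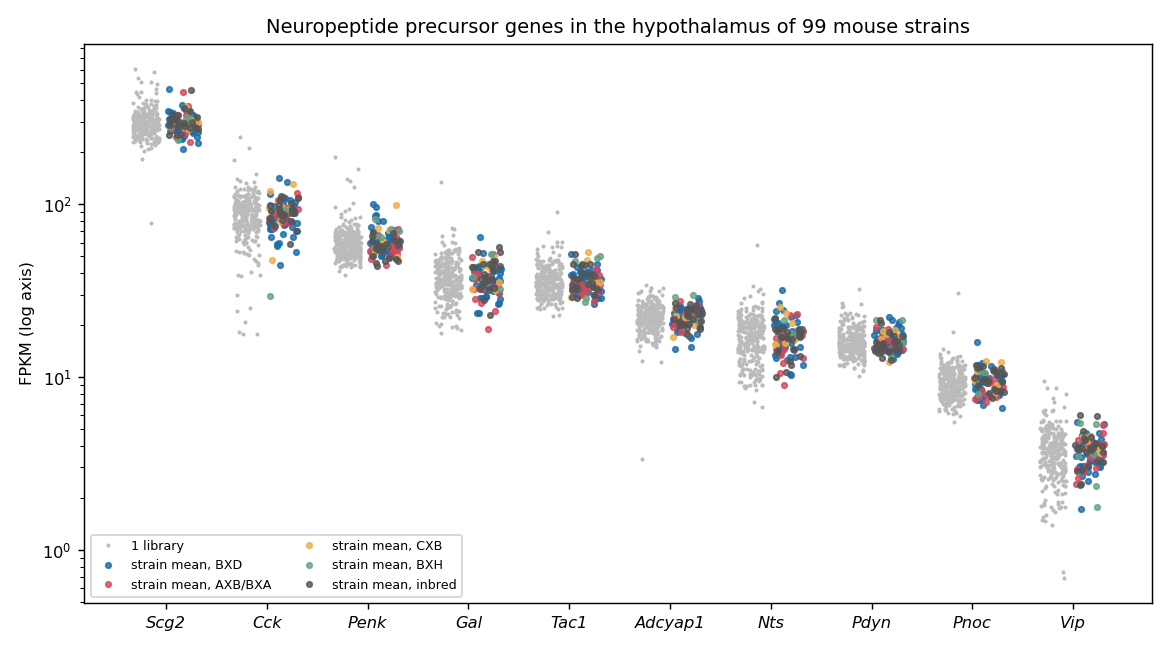
FPKM on a log axis for the 10 precursor genes, ordered by mean level: grey points are single libraries (n = 280) and coloured points the means of 99 strains, coloured by strain set. Levels run from 298.7 FPKM for Scg2 to 3.76 FPKM for Vip, and the lone low point of Adcyap1, at 3.36 FPKM, is BXD-12/TyJ replicate 2.

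All 10 precursors differed among the 99 strains (limma moderated F test on log2(FPKM + 1), Benjamini-Hochberg adjusted over all genes), where 74.9% of all genes did. The strain share, the part of the variance between mice that lies between strains, was highest for Gal at 0.36 ± 0.10 (jackknife SE over strains) and Tac1 at 0.35 ± 0.08. Penk (0.31 ± 0.09), Pdyn (0.30 ± 0.07), Nts (0.30 ± 0.07), Pnoc (0.28 ± 0.09), Adcyap1 (0.28 ± 0.10), Cck (0.27 ± 0.11) and Scg2 (0.25 ± 0.07) lay within an SE of each other. Without the library with the highest sum the strain shares were 0.43 for Gal, 0.41 for Tac1, 0.37 for Adcyap1 and 0.35 for Pnoc. Those of Penk (0.33), Nts (0.31), Pdyn (0.30), Scg2 (0.29), Cck (0.28) and Vip (0.12) moved less. Vip was lowest at 0.11 ± 0.09, with an adjusted p of 0.049 by limma that was 0.050 by a Kruskal-Wallis test and up to 0.30 under the other settings. Without replicate 2 of each strain, Cck (adjusted p = 0.38), Scg2 (0.37) and Pdyn (0.14) lost the call as well, and the other 6 kept it under all 16 alternatives. Of all 14079 genes, 6421 passed without replicate 2, against 10547 with all mice. The median strain share over the 10 was 0.29 and over all genes 0.22, and the 10 lay between the 24.2th (Vip) and the 73.9th (Gal) percentile of all genes. With the summed striatum, cortex, thalamus, pituitary and choroid plexus markers as covariates, all 10 still passed and Vip's adjusted p was 0.044.

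**Figure D2:**
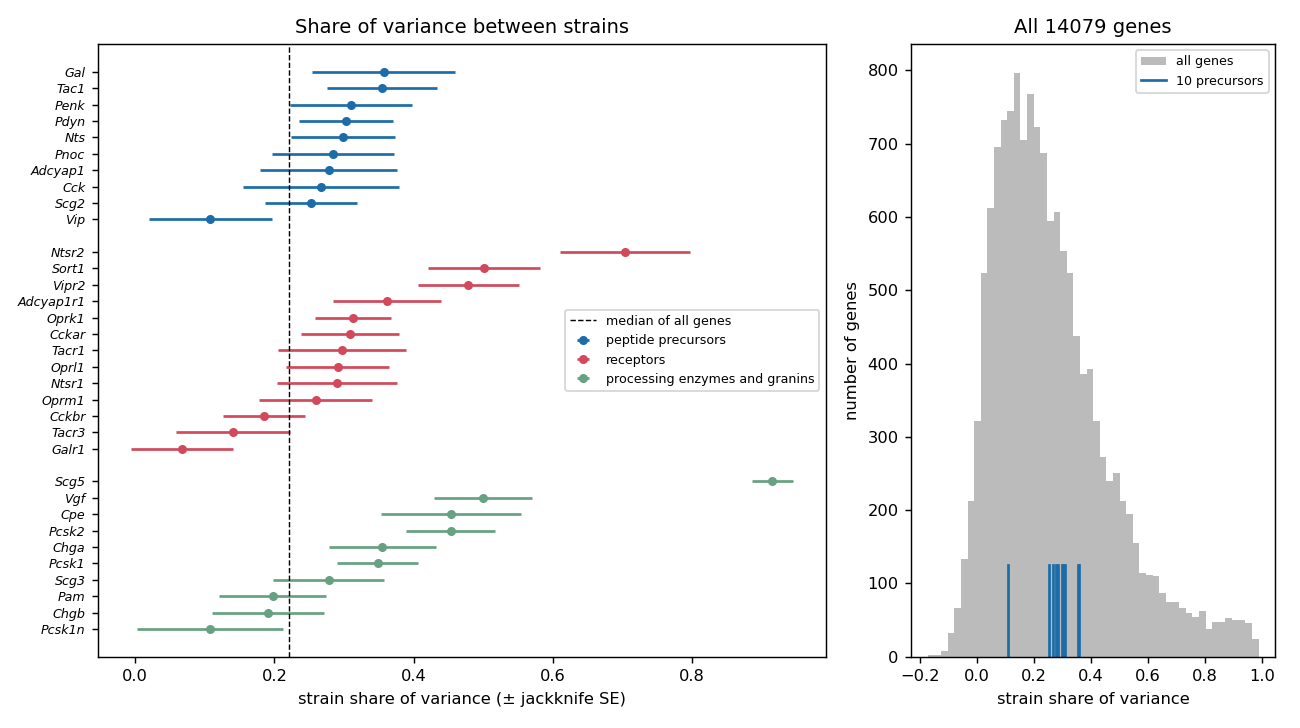
Left, the strain share of variance (± jackknife SE) of the 10 precursors, 13 receptor genes and 10 processing enzyme and granin genes, with the median of all genes (0.22) as a dashed line; right, its distribution over all 14079 genes with the precursors as blue ticks. With all libraries, the precursors cluster between 0.25 and 0.36 apart from Vip at 0.11, while Ntsr2 and Scg5 reach 0.70 and 0.92.

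Strains are ordered here by the mean of at least 2 mice, and the lowest and highest are given as descriptions. Because they are picked as extremes, a lack of overlap between them carries little weight. Among the opioid precursors, single mice stood far above their strain mates for Penk. It was highest in BXD51, at 60.7, 161 and 81.0 FPKM in its 3 mice, and lowest in BUB/BnJ, at 50.5, 38.8 and 47.1 FPKM. The strains do not overlap, and the BXD51 mean of 100.8 ± 52.8 FPKM has a wide spread because of 1 mouse. The same holds for CXB-7/ByJ, with 54.0, 186 and 58.0 FPKM. In these high libraries the striatum markers were high as well: they summed to 127 FPKM in the BXD51 mouse at 161 FPKM of Penk, against 45.6 and 38.0 in its strain mates, and to 140 FPKM in the CXB-7/ByJ mouse at 186, against 39.0 and 38.6. Penk is strongly expressed by striatal neurons, and the part of striatal tissue in these values was not tested.

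Pdyn, the source of dynorphins, had the narrowest range of strain means. It was highest in BXD-19/TyJ, at 18.6, 21.4 and 26.8 FPKM, and lowest in CXB-11/HiAJ, at 12.6, 11.7 and 12.5 FPKM. These strains do not overlap and differ 1.81-fold. Pnoc was lowest in BXD85, at 6.33, 6.50 and 7.05 FPKM. Its highest strain mean, 16.0 ± 12.7 FPKM in BXD-12/TyJ, came from 1 of the libraries with a high sum (30.8 against 8.86 and 8.52 FPKM). Without both such libraries the highest was CXB-12/HiAJ, at 11.7, 12.7 and 12.4 FPKM, 1.85-fold above BXD85 and with no overlap.

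Galanin and neurotensin shared their lowest strain. Gal stood at 19.8 and 17.9 FPKM in the 2 mice of BXA-12/PgnJ, and Nts at 8.967 and 9.003 FPKM in the same mice. BXD-15/TyJ was also among the 3 lowest strains for both, with Gal at 23.9, 22.1 and 24.0 FPKM and Nts at 11.2, 9.40 and 10.5 FPKM. At the upper end, BXD-12/TyJ led both lists only through replicate 2 (Gal 134 FPKM against 25.8 and 33.4, Nts 58.1 FPKM against 16.97 and 20.5). Without the libraries with a high sum, Gal was highest in SJL/J, at 66.4 and 45.9 FPKM, which is 2.97-fold above BXA-12/PgnJ. Nts was then highest in BXD-19/TyJ, at 24.7, 28.8 and 27.0 FPKM, 2.99-fold above BXA-12/PgnJ. Gal in SEA/GnJ came next, at 52.5, 49.2 and 58.1 FPKM.

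Cck had the widest range of strain means, 4.81-fold. It was lowest in BXHB2, at 30.0, 17.7 and 40.4 FPKM, and highest in BXD-9/TyJ, at 132, 112 and 179 FPKM. BXD-19/TyJ (63.0, 52.2 and 17.8 FPKM) and CXB-12/HiAJ (24.0, 57.8 and 61.4 FPKM) were the next lowest. The sum of thalamus markers followed the same mice: 58.2, 21.5 and 80.0 FPKM in BXHB2, 111, 73.6 and 21.7 in BXD-19/TyJ, 141, 219 and 204 in C57BL/6J, and 293.6, 309.5 and 311.1 in BXD-9/TyJ. Tac1 spanned 2.02-fold, from 27.9 and 24.8 FPKM in BXD-6/TyJ to 42.9, 47.7 and 68.9 FPKM in CXB-3/ByJ. Without the libraries with a high sum the top strain for Tac1 was 129X1/SvJ, at 38.7, 55.2 and 60.3 FPKM.

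The secretin relatives differed in how far they reached. Vip was lowest in BXD-15/TyJ, at 1.88, 1.46 and 1.86 FPKM, followed by BXH-4/TyJ at 1.77, 1.71 and 1.85 FPKM, and both sets of 3 mice were tight. It was highest in 129X1/SvJ, at 5.56, 3.91 and 8.67 FPKM, and the 3.49-fold span between extremes comes with a within-strain SD of 1.21 FPKM. Adcyap1 ran from 15.1 and 14.1 FPKM in BXD-6/TyJ to 26.9, 28.4 and 33.9 FPKM in BXHB2, the strain with the least Cck. Scg2 was lowest in BXD-12/TyJ (247.8, 77.7 and 302.6 FPKM) because of replicate 2, and without both such libraries in BXD-6/TyJ, at 243 and 212 FPKM. Its highest strain, BXD50, held 273.2, 539 and 578.97 FPKM, which is 2.04-fold above BXD-6/TyJ, and its lowest mouse was below the median library of 290 FPKM.

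When strains were ordered by mean, at least 97 of the 98 neighbouring pairs overlapped in their single mice for every precursor. For Gal, Nts, Penk and Cck 1 neighbouring pair did not overlap. The lowest and highest strains did not overlap, except for Scg2, where they overlapped with BXD-12/TyJ replicate 2 included and did not without both libraries with a high sum. Picking the extremes of the ordered means favours such a lack of overlap, and its share over all genes is not given here.

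Strains of a recombinant inbred set divide the genomes of the same parents, so each set was also tested by itself within the fit of all strains. Among the 43 BXD strains 9 of 10 precursors passed, where 64% of all genes did, and Vip did not (adjusted p = 0.22). Tac1 there had an adjusted p of 0.0024 that was 0.083 in a limma fit on the BXD mice alone and 0.29 without replicate 2. Among the AXB and BXA strains 3 of 10 passed (Gal, Nts and Scg2), where 22.1% of all genes did, with Gal strongest (adjusted p = 0.00023, limma). With marker sums as covariates Nts (adjusted p = 0.055) and Scg2 (0.15) lost the call there, and without any 1 of the replicates 0 to 1 precursors passed. Of all 14079 genes, 1360 to 2061 passed there without 1 of the replicates, against 3117 with all mice. Among the 7 CXB strains 4 passed (Tac1, Cck, Penk and Pdyn), where 16.4% of all genes did, but a fit on the CXB mice alone called none and a fit with marker sums called Tac1 alone. Those fits called 434 and 2442 of all genes, against 2312 in the main fit. Among the 6 BXH strains 4 passed (Cck, Tac1, Pdyn and Vip), where 18.4% of all genes did, and Vip had an adjusted p of 0.14 in a fit on the BXH mice alone. Among the 25 classical inbred strains 4 passed (Gal, Tac1, Pdyn and Nts), where 47.4% of all genes did, and this count was 7 in a fit on these mice alone and 7 without the library with the highest sum. Of all genes, 8708 and 8146 passed under these settings, against 6676 in the main fit. Pdyn, with an adjusted p of 0.015 there, was at 0.15 in the fit on these mice alone (limma). Tac1 and Pdyn thus passed in 4 of the 5 sets, and Gal, Nts and Cck in 3 of 5. Whether a gene's strain variance differs between sets was not tested.

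Cck in the BXH set depended on the marker sums. Its strain means ran from 29.4 FPKM in BXHB2 to 92.9 FPKM in BXH-19/TyJ, with an adjusted p of 1.5e-05 in limma that became 0.72 with the 5 marker sums as covariates. In the classical inbred strains Cck moved the other way, from an adjusted p of 0.78 to 0.0031 with the covariates. Tac1 in the BXH set, from 27.2 FPKM in BXH-19/TyJ to 50.1 FPKM in BXH-9/TyJ, passed with and without them, and Pdyn there passed in both fits as well.

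None of the 10 precursors differed between a parental strain and C57BL/6J, where the share of all genes called was 6.85% for DBA/2J, 7.98% for A/J, 7.56% for C3H/HeJ and 6.75% for BALB/cJ. Each contrast sets 3 mice against 3, all 4 share the C57BL/6J mice, and by limma 0 precursors reached even an unadjusted p under 0.05. No setting tried called any. The intervals were wide. Gal stood at 38.7, 28.0 and 36.1 FPKM in C57BL/6J and at 46.1, 45.8 and 49.1 FPKM in C3H/HeJ. These groups do not overlap, and the difference was 0.46 ± 0.24 (SE) on the log2(FPKM + 1) scale, with a 95% interval of -0.02 to 0.94. Gal was similar in BALB/cJ (47.6, 43.6 and 49.4 FPKM, difference 0.45 with an interval of -0.03 to 0.93). Vip gave the largest difference, 0.51 in BALB/cJ (4.76, 8.02 and 5.08 FPKM) against C57BL/6J (5.03, 2.64 and 3.96 FPKM), with an interval of -0.07 to 1.098 and overlapping mice.

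Many recombinant inbred strain means lay beyond both parental means. Of the 43 BXD strain means for Pnoc, 33 lay below both parents (9.87 FPKM in C57BL/6J and 10.2 in DBA/2J), 2 between and 8 above. For Penk, where the parents stood at 59.2 and 57.7 FPKM, 17 lay below, 2 between and 24 above. For Scg2, whose parents were further apart (312.8 and 252.4 FPKM), 24 lay between. These are descriptions of means of 1 to 3 mice, and close parents leave little room between them.

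Most precursors were correlated positively across strains, while Cck had a negative r with each of the other 9. Of 45 pairs, 29 correlated over the 99 strain means (permutation tests of 100000 resamples, with the adjusted p over 45 pairs under the threshold for Pearson's r as well as for Spearman's rho), 25 positively and 4 negatively. These 29 had an absolute r of at least 0.23 and an absolute rho of at least 0.27, which 9.59% of all pairs of genes reached. Without the library with the highest sum 34 pairs passed, and without both libraries with a high sum 34. The 4 negative pairs past the threshold all involve Cck. Strains of a recombinant inbred set share their parents' alleles, so the points are not fully independent.

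The strongest positive pairs linked Gal, Nts, Penk, Pnoc and Pdyn. Gal and Pnoc had r = 0.64 (rho = 0.61, adjusted permutation p of 3.75e-05 for r), and 0.61 without the 2 strains farthest from the Gal median. Nts and Penk had r = 0.63 (rho = 0.62), Gal and Nts 0.61 (rho = 0.59), and Penk and Pdyn 0.61 (rho = 0.55). Penk and Pnoc, as well as Nts and Pnoc, had r = 0.59. Without both libraries with a high sum these 6 values lay between 0.55 and 0.62. Within strains, as deviations of mice from their strain mean, Gal and Nts moved together even more (r = 0.73 over 280 libraries, a description). Adcyap1 and Scg2 had r = 0.53 (rho = 0.42) across strains and 0.54 within them, and without both libraries with a high sum 0.43 across and 0.43 within. Both were also linked to other precursors past the threshold: Tac1 with Adcyap1 at 0.41 (0.60 without both libraries), Pdyn with Scg2 at 0.34, Gal with Scg2 at 0.28, Pdyn with Adcyap1 at 0.26 and Tac1 with Scg2 at 0.23. With Nts and Pnoc they had r between -0.07 and 0.10, none past the threshold, and between 0.05 and 0.23 without both libraries.

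Cck fell where Penk (r = -0.46, rho = -0.28), Pdyn (r = -0.46, rho = -0.29), Adcyap1 (r = -0.42, rho = -0.34) and Scg2 (r = -0.40, rho = -0.35) were high. After the marker sums of striatum, cortex, thalamus, pituitary and choroid plexus were regressed out, Cck with Penk turned to 0.28, with Pdyn to 0.14 and with Scg2 to 0.06, and with Adcyap1 it was -0.04. In the same residuals 18 of 45 pairs passed, 17 of them positive, and Gal with Pnoc (0.59), Nts with Penk (0.56), Gal with Nts (0.53), Nts with Pnoc (0.52) and Adcyap1 with Scg2 (0.48) were the largest of those named above, while Penk with Pnoc was at 0.36 and Penk with Pdyn at 0.25.

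**Figure D3:**
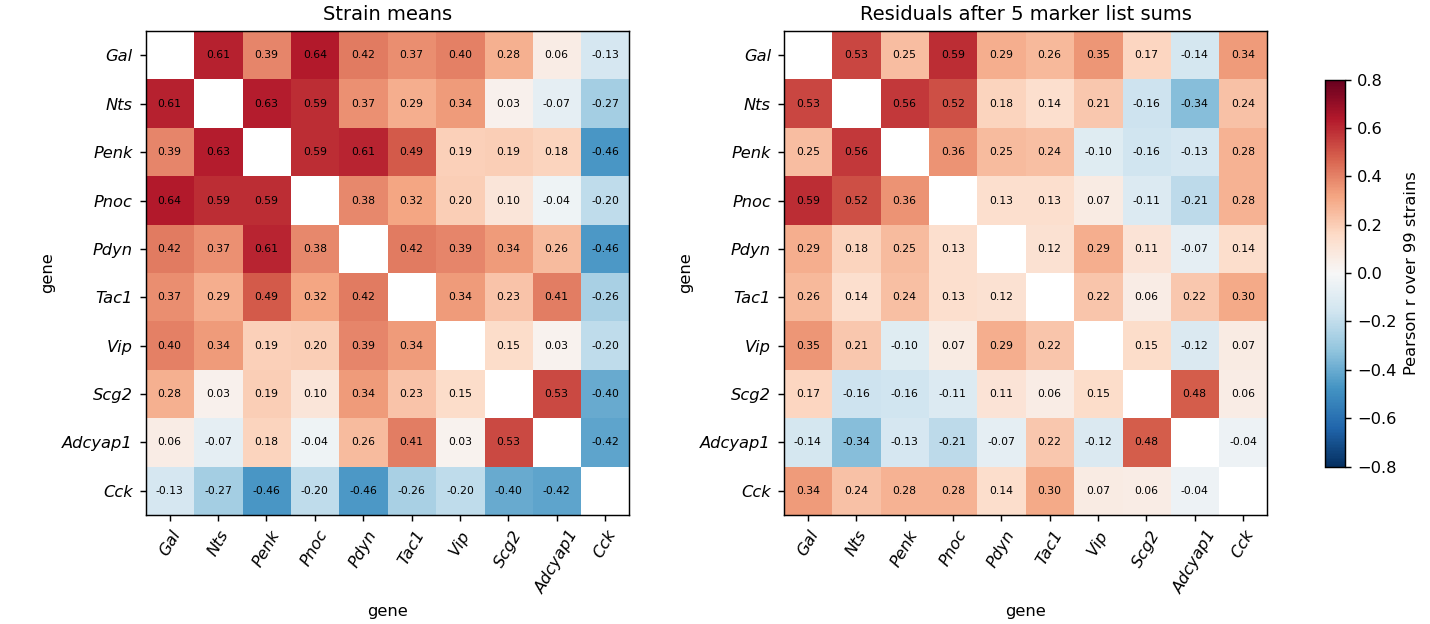
Pearson's r over 99 strain means for each pair of precursors, left for log2(FPKM + 1) and right for residuals after the sums of 5 marker lists (colour from blue, negative, to red, positive; the numbers are r). Cck is blue on the left, down to -0.46 with Penk and with Pdyn, and on the right it is positive with all but Adcyap1 (-0.04), while Gal with Pnoc is at 0.59.

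Against the marker sums themselves, Cck went the opposite way to the other precursors. Over the 99 strain means Cck had r = 0.87 with the thalamus list (rho = 0.69, adjusted permutation p of 3.81e-05 for r over 80 comparisons, 0.80 without the 2 farthest strains) and 0.74 with the cortex and hippocampus list (rho = 0.56). Each of the other 9 precursors had a negative r with both lists and passed the threshold, from -0.30 (Gal and Vip) to -0.66 (Penk) with thalamus markers. Which share of all genes passes with these or the other marker lists is not given here. The counts are therefore not shown to be particular to the precursors. Within strains, without both libraries with a high sum, the thalamus value for Cck was 0.86. The part of thalamic tissue in these levels was not tested. Penk had r = 0.50 with the striatum list (0.37 without the 2 farthest strains, 0.62 within strains without both libraries). The ventromedial nucleus list, of which 2 of 3 genes (Nr5a1 and Fezf1) were found, had positive r with 7 precursors past the threshold, led by Adcyap1 at 0.56, Scg2 at 0.53 and Pdyn at 0.50, and negative with Cck at -0.52. Adcyap1 is a known product of ventromedial neurons. Of the suprachiasmatic list 4 of 6 genes were found (Lhx1, Rgs16, Six6 and Syt10), and Prok2 and Nms were not among them. With that list 6 precursors had a negative r past the threshold. They were Penk at -0.60, Tac1 at -0.47, Pdyn at -0.43, Pnoc at -0.41, Nts at -0.36 and Vip, the peptide of clock neurons, at -0.26. Within strains Vip was at -0.15, and at -0.12 without both libraries. Cck had 0.59 with that list, positive as with the thalamus list. The part of suprachiasmatic tissue in these values was not tested. Scg2 was the precursor that followed the arcuate list past the threshold (r = 0.46, rho = 0.30, 0.28 without the 2 farthest strains). The sum of that list, which holds Pomc, reached 6974 FPKM against a median of 173. With the anterior pituitary list Scg2 had r = 0.32 (adjusted permutation p of 0.0032) but rho = 0.16, which did not pass (0.16), and r = 0.47 within strains without both libraries. The part of pituitary tissue in Scg2 was not tested.

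**Figure D4:**
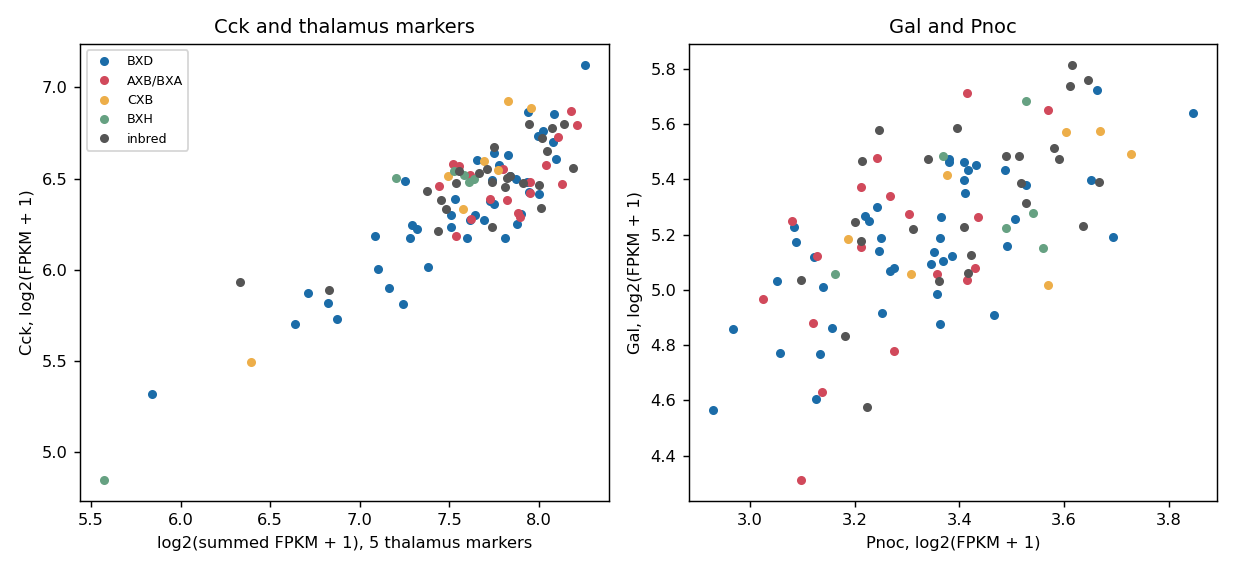
Means of 99 strains on log2 scales, coloured by strain set: left, Cck against the sum of 5 thalamus markers (r = 0.87); right, Gal against Pnoc (r = 0.64). The strain with the least Cck, BXHB2 at 29.4 FPKM, is the lowest point on the left.

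For each precursor the 3 genes with the highest r over the 99 strain means were taken. For Cck they were Rtn4r (r = 0.87), Gabrd (0.85) and Ramp3 (0.85), the last being 1 of the 5 thalamus markers. For Gal, Nts and Pnoc, Ecel1, a neuronal endopeptidase-like gene, was among the 3 most alike (0.73, 0.72 and 0.79). Trh, the precursor of thyrotropin-releasing hormone, came second for Gal (0.66) and for Vip (0.43). Slc32a1, the vesicular GABA transporter that marks inhibitory neurons, was first for Penk (0.72), before Ap1s2 (0.70) and Maged1 (0.68), and second for Pnoc (0.76), before Pld3 (0.74). Nts was closest to Zcchc12 (0.73), followed by Lhx6 (0.73), a transcription factor of GABA neurons. Scg2 was closest to Fndc3b (0.71), Pcsk1 (0.69), the convertase that cuts many precursors, and Fndc3a (0.68). Pdyn was closest to Magel2 (0.64), Asb4 (0.63) and Pld3 (0.63), and Tac1 to Ahi1 (0.62), Vat1l (0.61) and Resp18 (0.57). Adcyap1 was closest to B630019K06Rik (0.72), Grb10 (0.67) and Prkacb (0.66). The first for Vip was Ptplad1 (0.44) and the third Metap1 (0.43), the lowest values among the 10 precursors. Pnoc itself was the third for Gal (0.64).

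For no precursor was a gene within 5 Mb the most alike over the BXD strains. Only 6 (Adcyap1) to 126 (Gal) of the 14079 genes lay that near, so a gene elsewhere is likely to rank first. Local control of a precursor was not tested. For Tac1 the authors list a local eQTL, a variant near the gene associated with its level. Within 5 Mb of each precursor, the largest absolute r over the 43 BXD means belonged to Cck and Ctnnb1 (r = 0.66, 529.2 kb apart), Pdyn and Secisbp2l (-0.64), Gal and Ehbp1l1 (0.61), Pnoc and Dleu7 (0.58) and Tac1 and Asb4 (0.56). For Scg2 it was Dnajb2 (-0.46), for Nts Atp2b1 (-0.44), for Vip Sash1 (-0.41), for Penk Car8 (-0.39) and for Adcyap1 Ppp1r21 (-0.35). For every precursor, at least 24 genes had a larger absolute r, up to 3021 genes for Adcyap1.

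Several of these genes, Vip and Scg2 among them, are known targets of cyclic AMP signalling, which acts through the response element TGACGTCA. RefSeq promoter windows (250 bases before to 50 after a start, GRCm38.p6) were at hand for 8 of the 10 genes, in 10 windows. The full palindrome TGACGTCA was in the Scg2 window alone, and 1.79% of all 32851 windows hold it. Its core TGACG, searched on both strands and overlapping the palindrome, was in 8 of the 10 windows and in 20.8% of all windows. The windows with the core belong to 7 of the 8 genes (all but Pdyn), and both Adcyap1 windows hold the same match. For each of these genes 1 match is shown, and Tac1 has another at -197. The matches are given in the direction of transcription with the core in capitals, in either orientation and with up to 10 bases on each side, to let the flanks be compared. A match is a description and not a site.

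Scg2, first base at -68: gctgagccggTGACGTCAgcgtgga
Vip, first base at -79: atcactactgTGACGtctttcgggg
Adcyap1, first base at -91 of the window that starts at 93198767: actaggatgcTGACGtcttttactg
Cck, first base at -47: tgctggactgCGTCAgcactgggta
Tac1, first base at -43: tctacaggctCGTCAcgcctgagat
Nts, first base at -166: tagggaagatCGTCActttccatca
Gal, first base at 20 after the start: gctgagccggTGACGcggcagctcc

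The windows of Vip (chr10:5638968-5639267, plus strand) and Scg2 (chr1:79439977-79440276, minus strand) overlap the first exons of their annotated transcripts. Other windows are placed differently. The deposited Adcyap1 transcript begins at 93199422 on chromosome 17, past both of its windows. The Gal window (chr19:3414495-3414794, minus strand) lies upstream of the annotated Gal transcript, which begins at 3414472. The Tac1 window (chr6:7554811-7555110, plus strand) lies inside the first exon of a deposited Tac1 transcript (7554795 to 7555161), so its matches fall within that exon. Gal and Scg2 have the same letters from the start of the printed stretch to the end of the core. Levels of Vip and Adcyap1, whose matches both go on with tctt, had r = 0.03 across strains.

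Isoforms differed among strains for some precursors, most of all Tac1. At the transcript level 17 of 32 differed among the 99 strains by limma, where 45.9% of all transcripts did. Of transcription start sites 12 of 24 passed (49.6% of all), of coding sequences 8 of 14 (52.0% of all), and of transcript shares within a gene 12 of 29 (36.7% of all). Of the 32 transcripts 14 match an annotated intron chain and 18 are unannotated isoforms. In a gene with 2 transcripts the shares mirror each other. Isoform values are estimates that divide shared reads, and their precision is not given in the files.

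Tac1 (chr6:7554795-7562982, plus strand) accounts for 6 of the 12 shares. Its 7 transcripts differ in cassette exons, which decide the peptides made: the beta form holds all 7 exons, the alpha form lacks exon 6 and with it neurokinin A, and the gamma form lacks exon 4. Exon 3 carries substance P. The 4 exons that are wholly coding, read from GENCODE M21 (GRCm38), are shown with capitals for the codons of the tail that all tachykinins share, found by a pattern that left the variable positions of those codons free. It matched in 2 of the 4 exons, once in exon 3 (substance P) and once in exon 6 (neurokinin A).

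Exon 3, chr6:7556684-7556780: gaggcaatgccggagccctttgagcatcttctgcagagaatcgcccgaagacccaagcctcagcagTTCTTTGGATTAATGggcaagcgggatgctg
Exon 4, chr6:7557216-7557260: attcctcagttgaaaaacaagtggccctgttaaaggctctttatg
Exon 5, chr6:7557720-7557743: gacatggccagatctctcacaaaa
Exon 6, chr6:7559099-7559152: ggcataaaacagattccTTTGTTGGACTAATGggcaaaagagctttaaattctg

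Of the 7 Tac1 transcripts, 4 are unannotated and differ from the annotated ones by exon ends shifted by 1 base and by earlier starts. Transcripts were therefore also grouped by cassette content, allowing 1 base, a grouping chosen after the values were seen. On average the 3 beta transcripts made up 51.1% ± 10.6 (SD, n = 280 libraries) of Tac1, the 3 gamma transcripts 36.4% ± 7.96 and the single alpha transcript 12.6% ± 8.46. Exon 4 was in 63.6% of Tac1, from 41.2% to 88.6% in single libraries (median 63.6%). The share with exon 4 differed among strains (strain share 0.33, permutation p = 1e-05, the smallest that 100000 resamples can give, and 1e-05 without both libraries with a high sum), and so did the beta share (p = 1e-05). The alpha share, which decides exon 6, did not pass (permutation p = 0.10, and 0.21 without both libraries).

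SWR/J had the least exon 4, at 42.6%, 42.4% and 46.7% in its 3 mice. BXD-6/TyJ had the most, at 69.5% and 81.6%. C57BL/6J stood at 69.4%, 63.5% and 68.2%, and DBA/2J at 60.004%, 49.1% and 59.9%. Every SWR/J mouse was below every mouse of these other strains, and the DBA/2J mice were below those of C57BL/6J. Strains with more Tac1 tended to have less exon 4 (r = -0.41 over 99 strain means, a description in which both values come from the same libraries). The annotated beta transcript alone ran from 3.67% of Tac1 in 129X1/SvJ to 54.4% in BXD85, but grouped by exon content BXD85 held exon 4 in 66.8% ± 3.16 (n = 3) of Tac1. The unannotated beta transcript with the later start was at 0 in all 3 mice of BXD62, against 15.3% over all libraries.

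**Figure D5:**
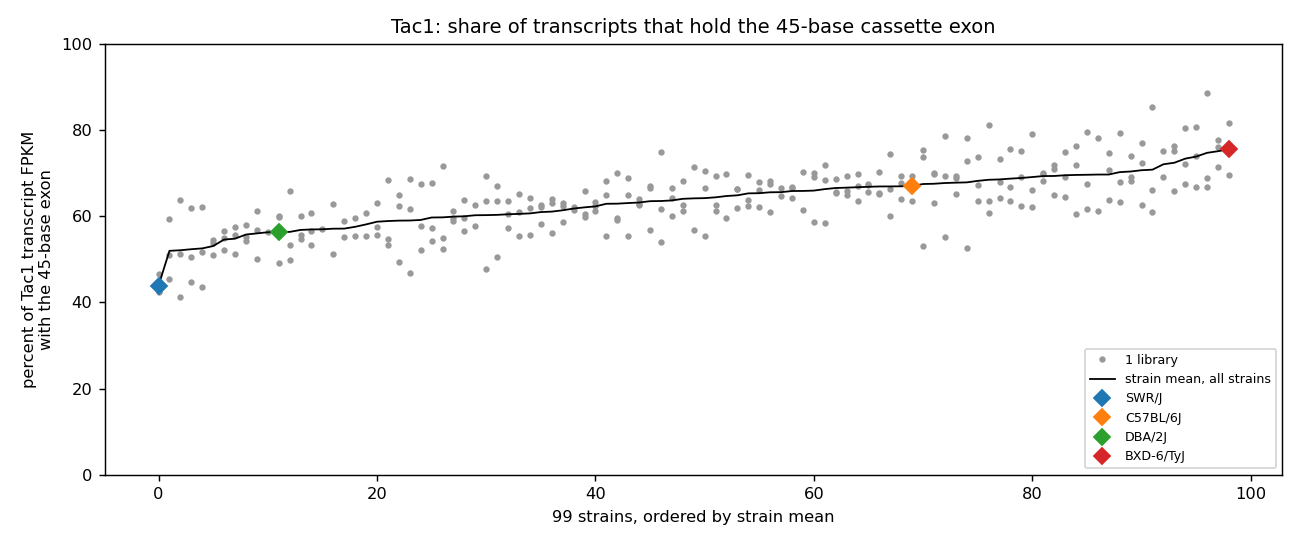
Percent of the summed Tac1 transcript FPKM from transcripts that hold the 45-base exon 4, by strain in order of the mean: grey points are single libraries (n = 280), the line the strain mean and diamonds 4 named strains. The 3 SWR/J mice (42.4% to 46.7%) lie below the 3 mice of C57BL/6J (63.5% to 69.4%).

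Penk used several first exons. The transcript that starts at an unannotated exon of 38 bases (chr4:4138579-4138616) made up 51.5% ± 11.6 of Penk and the annotated chain with the exon at 4138635 to 4138819 made up 18.0% ± 5.11. Both shares differed among strains (adjusted p = 7.4e-05 and 0.00078, limma), but each lost the call without 1 of the replicates (adjusted p up to 0.25 and 0.27). The same was true of the shares of Gal (up to 0.31), Pnoc (0.46) and Scg2 (0.56) that passed, and of 2 of the 6 Tac1 shares (0.52 and 0.082). The first was lowest in BXA-8/PgnJ, at 33.1%, 28.0% and 32.1%, against 66.8% in CXB-3/ByJ, the strain of a library with a high sum. Gal had a longer first exon in a second transcript, 6.59% ± 3.88 of Gal, with almost none in BXHA1 and 15.8% in BXD85 (adjusted p = 0.011 by limma and 0.16 by Kruskal-Wallis). The third Pnoc transcript, 6.996% ± 6.24 of the gene, also passed by limma (adjusted p = 0.022) and not by Kruskal-Wallis (0.058).

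For Nts the assembly holds an unannotated isoform, not checked against reads, that begins 78.3 kb upstream. Its first exon of 32 bases (chr10:102568729-102568760, minus strand) is joined to a longer form of the usual first exon of Nts (chr10:102490254-102490454), and the isoform made up 35.5% ± 22.3 of Nts, from 0 in 15 libraries to nearly all of Nts in the highest. This share did not differ among strains by limma (adjusted p = 0.47, strain share 0.02). The level of the Nts gene did differ among strains. Pdyn had its level in the annotated form, 75.3% ± 9.95 of the gene, and none of its 5 shares passed. The annotated form with another first exon ran to 79.4% in BXD-12/TyJ replicate 2, against 6.31% on average.

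Scg2 was split between a pair of abundant transcripts. The annotated transcript made up 52.9% ± 4.77 (158 FPKM). An unannotated one, 46.1% ± 4.23 (138 FPKM), has a first exon of 18 bases and skips 120 bases inside the annotated last exon (chr1:79435932-79436051). Its level differed among strains (adjusted p = 1.3e-05, limma) and that of the annotated transcript did not pass (0.11), and the difference between them was not tested beyond the share, which passed for the unannotated transcript (adjusted p = 0.038, and 0.11 by Kruskal-Wallis). Vip, Cck and Adcyap1 had 1 deposited transcript each. That of Vip held 55.4% of the gene's level, and for the other genes the deposited transcripts held 93.8% to 100%.

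Receptors of these peptides were found for 13 of 18 genes listed. Of these 12 differed among strains, where 74.9% of all genes did. The largest strain shares were those of Ntsr2, a neurotensin receptor of astrocytes, at 0.70 ± 0.09 (84.3 ± 18.4 FPKM), Sort1, a sorting receptor that binds neurotensin, at 0.50 ± 0.08 (its locus is merged with Psma5), and Vipr2, the VIP and PACAP receptor of clock neurons, at 0.48 ± 0.07 (2.58 ± 0.72 FPKM). Galr1, a galanin receptor, did not pass (strain share 0.07, adjusted p = 0.15, limma). The strain shares of their peptides were 0.30 for Nts and 0.11 for Vip, and the difference between a receptor's share and its peptide's was not tested.

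All 10 processing enzyme and granin genes were found and 9 differed among strains, where 74.9% of all genes did. Scg5, the chaperone of the convertase PC2, had a strain share of 0.92 ± 0.03 at 258 ± 106 FPKM. Vgf, a granin-like precursor, had 0.50 ± 0.07, and Cpe, the carboxypeptidase that trims cut peptides, 0.45 ± 0.10 at 1005 ± 112 FPKM. Pcsk1n, an inhibitor of the convertase PC1, did not pass by limma (adjusted p = 0.051) and passed by Kruskal-Wallis (0.0048). Without the library with the highest sum it passed by limma as well (adjusted p = 0.0015). The median strain share was 0.30 for receptors and 0.35 for processing genes, against 0.29 for the precursors and 0.22 for all genes.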

How the data were processed

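Whole hypothalamus from male mice was sequenced without keeping strand, so overlapping antisense reads cannot be told apart. Per the authors' methods and processing notes, reads were aligned with STAR 2.3.1 to mm10 and assembled with Cufflinks 2.2.0 in each strain, and the deposited FPKM values were scaled by Cuffnorm 2.2.1. The authors kept features whose FPKM exceeded 1 in 50 or more mice and 0 in 100 or more. The files hold no counts, so depth per gene is unknown; the study's sample list gives 5886672 to 23402476 read pairs per mouse.

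Members were matched by gene name. Tests used limma 3.58.1 (R 4.3.3) on log2(FPKM + 1) over all features, with strain as factor and adjusted p under 0.05. The fit, tested on simulated data for 99 strains, recovered 100% of 200 changed genes among 14079, with 5.21% of calls false. The simulated strain differences were as large as the spread within strains, the noise was independent and no library stood apart. Recovery at the strain shares of the precursors, and false calls from shared dissection differences, were not tested. Strain share is an intraclass correlation. Where a strain's mice were born or raised is not stated, so p-values measure the spread between these mice. Named genes are the members, their extreme and parental strains, the 3 genes most alike, the most alike within 5 Mb, and of each list the 3 with the largest strain share and any not passing. The members and lists were chosen with earlier results of these data known.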

Additional observations from a re-analysis of the deposited data

How the results depend on the processing

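No paired analysis was possible because the labels give no replicate numbers that mark a shared litter or day. The numbers used here follow the order of deposit. Over 16 alternatives (pseudocounts, filters, quantile normalization, covariates, a Kruskal-Wallis test, the doubtful mouse, the repeated library and libraries left out), 6 to 10 of the 10 precursors differed among 99 strains. Of all genes, 6421 to 11768 passed under these alternatives. Leaving out each replicate in turn gave 6 to 9 of 10 over 99 strains, 3 to 9 among BXD, 0 to 1 among AXB and BXA, 2 to 5 among CXB, 1 to 4 among BXH and 1 to 3 among classical inbred strains. It also gave 9 to 12 transcripts, 3 to 9 start sites, 3 to 6 coding sequences, 4 to 9 transcript shares, 11 to 20 receptor, processing and granin genes and 24 to 39 correlated pairs. The lowest of each came without replicate 2, except for CXB (without 1 or 3), classical inbred strains (without 3) and pairs (without 1). Most counts over all features fell too. Without 1 of the replicates, 12367 to 16851 transcripts passed, against 23401 with all mice. Start sites fell from 16132 to between 8476 and 11585, and coding sequences from 9725 to between 5271 and 7011. Transcript shares fell from 17480 to between 8860 and 12253. Genes fell from 10547 to between 6421 and 8641 over 99 strains. Among BXD strains genes fell from 9013 to between 4138 and 8552, and among BXH from 2592 to at most 1996. The CXB count was 1 with marker sums as covariates and 0 in a fit on these strains alone, where 2442 and 434 of all genes passed. The classical inbred count was 7 in a fit on these strains alone, 7 without the library with the highest sum and 7 without both libraries with a high sum, both leave-outs being chosen after seeing the data. Of all genes, 8708, 8146 and 8903 passed under these settings. Correlated pairs numbered 18 after the marker sums were regressed out, 4 in AXB and BXA strains, 0 in CXB, 0 in BXH and 1 in classical inbred strains alone, where there are fewer strains. With the marker sums regressed out, Penk with Cck was 0.28, Pdyn with Cck 0.14 and Cck with Scg2 0.062. In AXB and BXA strains alone, Pdyn with Cck was 0.0404 and Cck with Adcyap1 0.0577. The cause of these turns was not tested. The parental contrasts called 0 precursors in each of 11 alternatives.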

Other observations

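The mouse that the labels leave between AXB strains had Scg2 at 336 FPKM, Cck at 104, Penk at 59.2, Gal at 46.2, Tac1 at 37.9, Adcyap1 at 23.4, Pdyn at 18.3, Nts at 16.3, Pnoc at 10.1 and Vip at 4.12 FPKM, all inside the range of the other libraries. BXD-12/TyJ replicate 2 stood apart in both directions: Adcyap1 was at 3.36 FPKM against a mean of 20.6 in its strain mates and Scg2 at 77.7 against 275, while Gal was at 134 against 29.6, Pnoc at 30.8 against 8.69 and Cck at 244 against 79.8. CXB-3/ByJ replicate 3 went the same way for these 5 genes, with Adcyap1 at 12.3 against 19.5 and Cck at 212 against 90.9 FPKM, but its Vip was lower than in its strain mates (2.70 against 4.08) where that of BXD-12/TyJ replicate 2 was higher (9.54 against 3.51).

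Mice of a strain whose title numbers differ by at most 5 were compared with those at least 50 apart. The median absolute difference of Nts was 0.27 on the log2(FPKM + 1) scale between near mice and 0.38 between far ones. For Pdyn it was 0.18 in both, and over all genes 0.14 and 0.15. What the numbers stand for is not stated, and no test was made.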
